A study of Mus musculus with 22 samples.

Results

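Markers of macrophages, T and natural killer cells, neutrophils, monocytes and dendritic cells, together with genes of MHC class II antigen presentation, were followed in mouse liver RNA across pregnancy and microbiota status. The 35 genes were taken by symbol from the 53392 rows of the gene count table: 12 macrophage markers (Adgre1, Clec4f, Vsig4, Cd5l, Marco, Timd4, Csf1r, Cd68, C1qa, C1qb, C1qc and Lyz2), the general leukocyte marker Ptprc, 8 T and natural killer cell genes (Cd3e, Cd3d, Cd4, Cd8a, Nkg7, Gzma, Gzmb and Klrb1c), 6 MHC class II genes (Cd74, H2-Aa, H2-Ab1, H2-Eb1, H2-DMa and Ciita), 4 genes listed for neutrophils (S100a8, S100a9, Il1b and Prtn3) and 4 for monocytes and dendritic cells (Ccr2, Itgam, Itgax and Xcr1). Every gene had 1 row, and 34 of the 35 passed the filter on low counts. Cd8a did not, with 39 counts in 1 library and 0 to 15 counts in the others.

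The libraries came from liver tissue of 22 female C57BL/6 mice, 1 library per mouse. Of the conventional mice, whose gut is colonised as usual, 6 were non-pregnant and 5 pregnant. Of the germ-free mice, which are kept in isolation from all microorganisms, 6 were non-pregnant and 5 pregnant. All received the same autoclaved chow and bedding, and no other treatment is given in the labels. Pregnant mice were taken at gestation day 15, a day that was counted from matings of 1 night in conventional mice but was assumed after matings of 72 h in the germ-free group. Conventional pregnant mice had been mated at 8 weeks of age and germ-free pregnant mice at 11 to 15 weeks. The labels give ages without a unit, from 70 to 77 in both conventional groups, from 92 to 105 in germ-free non-pregnant and from 91 to 121 in germ-free pregnant mice, so that microbiota status, age and, among pregnant mice, the dating of pregnancy cannot be told apart.

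The liver holds a large population of resident macrophages, the Kupffer cells, which line the sinusoids and take up bacteria and bacterial products that arrive with portal blood. In the mouse they carry the lectin receptor CLEC4F, the complement receptor VSIG4 and the scavenger protein CD5L, and they are a main source of the complement component C1q. MHC class II molecules present peptides to CD4 T cells; H2-Aa, H2-Ab1 and H2-Eb1 encode their chains, Cd74 the invariant chain that escorts them, H2-DMa a subunit of the chaperone that loads peptide, and Ciita the coactivator that switches these genes on in dendritic cells, B cells and activated macrophages. S100A8 and S100A9 are calcium-binding proteins abundant in neutrophils, and neutrophil granules hold proteinase 3, the product of Prtn3; Il1b encodes the cytokine interleukin 1 beta, which monocytes and macrophages make as well as neutrophils.

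The promoters of class II genes are known for a shared arrangement of an X box, bound by the RFX complex, and a Y box, bound by NF-Y, on which CIITA acts. They are printed because the 6 class II genes moved together in the libraries described below. The sequences come from RefSeq promoters on GRCm38.p6, which run from 250 bases before to 50 bases after each gene's start and were matched for 28 of the 35 genes. Both strands were searched for CTNGCAAC, a core of the X box, and CTGATTGG, a core of the Y box; the letters of the 2 motifs do not overlap. Capitals mark the X match and then the Y match in the promoters of H2-Aa, at chr17:34287774-34288073 on the minus strand, and H2-Eb1, at chr17:34305617-34305916 on the plus strand.
H2-Aa: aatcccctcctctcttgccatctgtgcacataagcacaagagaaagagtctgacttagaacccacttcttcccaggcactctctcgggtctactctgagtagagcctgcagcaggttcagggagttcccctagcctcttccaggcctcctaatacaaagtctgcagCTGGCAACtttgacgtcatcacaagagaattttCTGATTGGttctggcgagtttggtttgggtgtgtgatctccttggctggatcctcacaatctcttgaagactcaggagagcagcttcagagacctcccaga
H2-Eb1: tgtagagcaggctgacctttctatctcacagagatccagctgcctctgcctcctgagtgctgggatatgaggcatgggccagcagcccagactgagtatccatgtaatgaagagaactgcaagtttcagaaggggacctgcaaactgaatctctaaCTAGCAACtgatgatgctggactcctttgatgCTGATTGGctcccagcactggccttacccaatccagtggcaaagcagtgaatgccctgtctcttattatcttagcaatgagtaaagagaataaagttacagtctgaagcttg
The X and Y matches began 84 and 51 bases before the start of H2-Aa, with 25 bases between them. In H2-Eb1 they began 94 and 62 bases before the start, with 24 bases between them. Of all 32851 promoters of this length, 3.42% held the X letters, 4.1% the Y letters and 0.18% both. Of the 6 class II genes, 3 were matched, and H2-DMa, with 2 promoters in the table, held neither motif. No other matched member held both, and Gzma held the Y letters alone. A match describes the letters and is not evidence of binding.

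Total estimated counts ran from 18064491 to 30036912 per library, and levels are given as CPM, counts divided by the scaled library size. The lowest total belonged to conventional pregnant mouse 2, which also had the lowest share of mitochondrial counts (5.90%, against up to 32.0%). This library and, to a smaller extent, germ-free non-pregnant mouse 1 stood apart from their groups in the 35 genes, so the edgeR comparisons are given with all 22 libraries and without conventional pregnant mouse 2; DESeq2 was run on all 22 only. Conventional pregnant mouse 2 had the highest level of 22 libraries in 33 of the 34 tested members, compared with 14.8% of all 15928 genes tested. In this library the acute-phase gene Saa1 was at 2049 CPM against 13.9 to 62.2 CPM in the other libraries (62.2 CPM in germ-free non-pregnant mouse 1), 14 of 14 cell cycle genes and 22 of 25 genes of inflammation were at their highest of 22 libraries, and 0 of 9 hepatocyte genes were. In whole-tissue RNA, fewer cells of a type and less RNA per cell cannot be told apart.

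**Figure D1:**
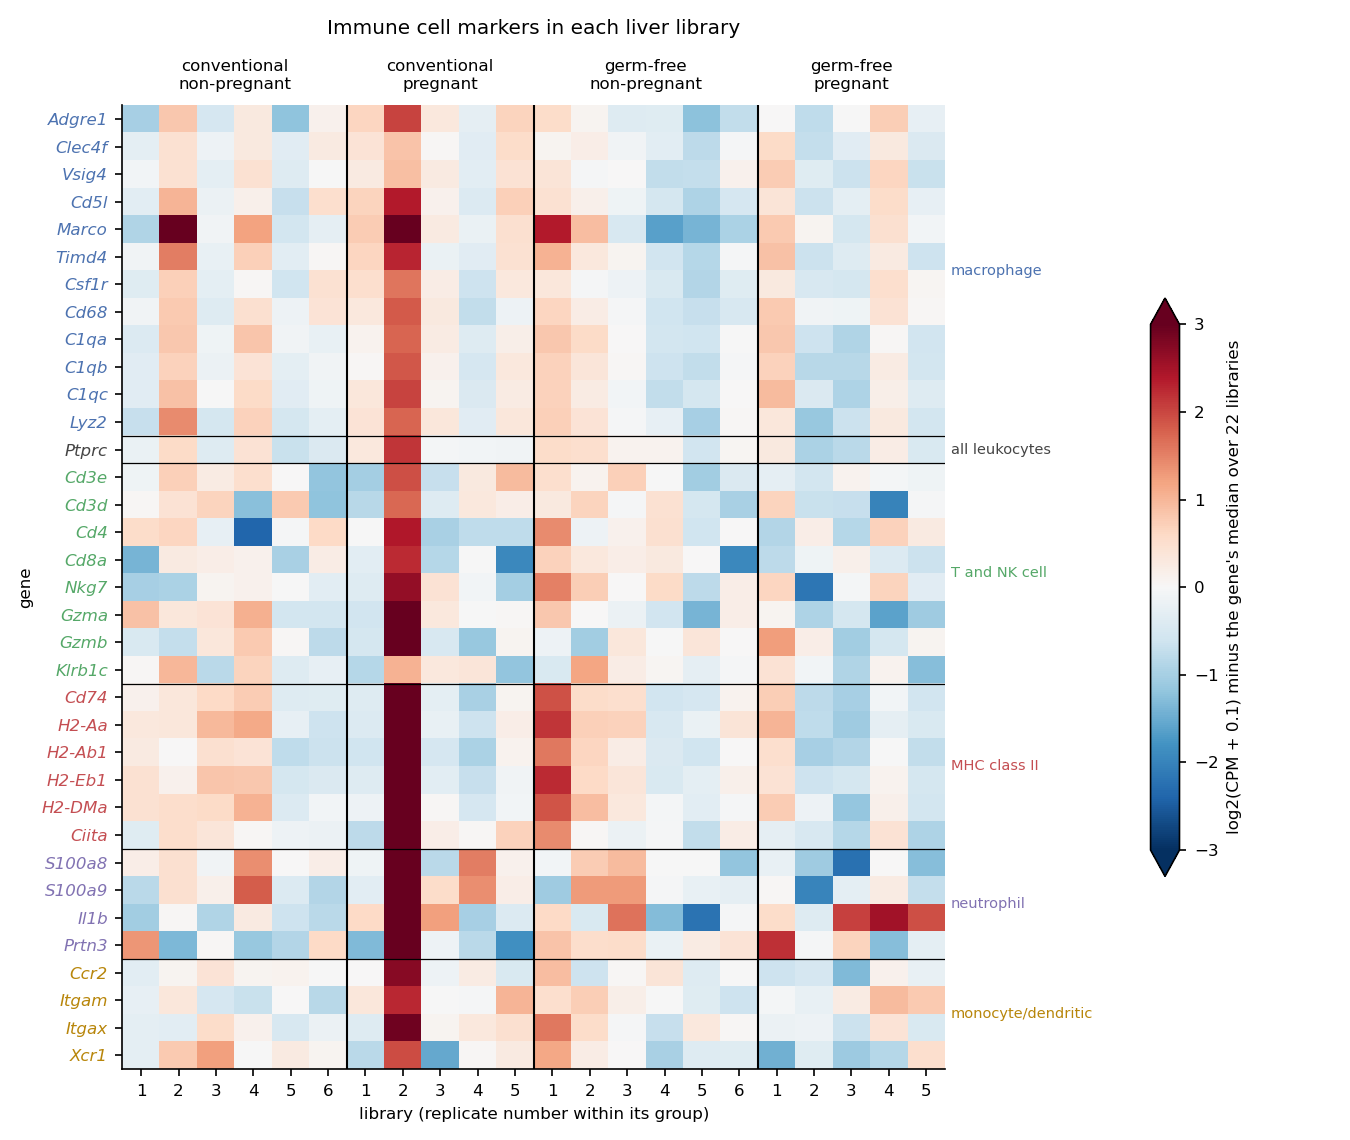
Level of the 35 genes (rows, grouped by class) in the 22 libraries (columns, grouped by mouse group), as log2 of CPM plus 0.1 minus the gene's median over the libraries, with colours limited to 3 in each direction. The column of conventional pregnant mouse 2 is high in every class, and germ-free non-pregnant mouse 1 is high mainly in the rows of MHC class II.

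Macrophage genes and Cd74 were the most abundant members. Per kilobase of exon, the median level over the 22 libraries was 49.1 CPM for C1qa, 44.8 CPM for Clec4f, 44.0 CPM for Cd74 and 38.5 CPM for Cd5l, against 0.574 CPM for the T cell receptor component Cd3d and 0.118 CPM for the integrin Itgax of dendritic cells. The defining markers of Kupffer cells were thus present in every library, whereas the lymphocyte, neutrophil and dendritic cell genes stood near the lower end of what was counted.

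Clec4f (ENSMUSG00000014542.3, chr6:83644542-83656187, minus strand, GRCm38), the Kupffer cell lectin receptor, had the highest mean CPM of its class before scaling for length. It ran from 87.0 to 153 CPM in conventional non-pregnant mice, with a median of 116 CPM. The 5 conventional pregnant mice had 147, 200, 113, 87.1 and 162 CPM. Germ-free non-pregnant mice ran from 64.6 to 128 CPM, with a median of 106 CPM, and the 5 germ-free pregnant mice had 166, 67.5, 86.9, 136 and 82.1 CPM. All 4 groups overlapped, and the 200 CPM of conventional pregnant mouse 2 was the highest value by a small margin. The group means were 116 ± 27.8 (SD, n = 6), 142 ± 43.7 (n = 5), 102 ± 22.4 (n = 6) and 108 ± 41.5 CPM (n = 5) in the same order.

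The other Kupffer and macrophage genes divided in how far conventional pregnant mouse 2 stood above the median of the other 4 mice of its group. Clec4f and Vsig4 were 1.54 and 1.55 times that median. Csf1r, the receptor for the growth factor that maintains macrophages, was 2.52 times, and the lysozyme gene Lyz2 2.65 times the median. Adgre1, which encodes the F4/80 antigen, C1qa, Cd68, C1qb, C1qc, Cd5l and the phosphatidylserine receptor gene Timd4 lay between 2.92 and 4.38 times the median. Marco, a scavenger receptor that binds bacteria, was the exception at 23.9 times.

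Marco (ENSMUSG00000026390.7, chr1:120474538-120505024, minus strand) also varied widely elsewhere. In conventional non-pregnant mice it ran from 4.94 to 93.7 CPM with a median of 8.14 CPM, the high value belonging to mouse 2. The conventional pregnant mice had 15.7, 290, 11.3, 8.01 and 13.0 CPM. Germ-free non-pregnant mouse 1 had 48.8 CPM against 2.95 to 17.7 CPM in the other 5 mice, and germ-free pregnant mice ran from 6.37 to 16.0 CPM. High Marco therefore appeared in single libraries of 3 groups, 2 of them non-pregnant. In conventional non-pregnant mouse 2, with the 93.7 CPM of Marco, S100a8 was at 0.558 CPM and Cd74 at 92.7 CPM, both inside the range of the rest of the group. Other macrophage genes were high in this library too. Adgre1 was at 18.0 CPM against 4.41 to 12.6 CPM in the rest of the group. Cd5l was at 159 CPM against 48.3 to 110 CPM, and Lyz2 at 109 CPM against 25.3 to 65.8 CPM. C1qa and Vsig4 were inside the range of the rest. Marco was described in each library because of these values, which were seen before it was chosen.

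The class II genes were high in both of these libraries. Cd74, the invariant chain gene, ran from 56.6 to 125 CPM in conventional non-pregnant mice, with a median of 86.5 CPM. In conventional pregnant mice it was at 56.3, 784, 60.2, 37.8 and 78.2 CPM. In germ-free non-pregnant mice it was at 276, 109, 105, 49.6, 52.3 and 79.5 CPM, and in germ-free pregnant mice at 123, 42.8, 36.6, 69.6 and 49.7 CPM. Conventional pregnant mouse 2 and germ-free non-pregnant mouse 1 were high, and no other library exceeded 125 CPM. The remaining conventional pregnant mice averaged 58.1 ± 16.6 CPM (SD, n = 4), below the conventional non-pregnant mean of 87.3 ± 28.2 CPM (n = 6), with ranges that overlapped.

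The chain genes followed the same order. H2-Ab1 (ENSMUSG00000073421.5, chr17:34257689-34269419, plus strand), the beta chain of the I-A molecule, was at 24.3, 400, 25.7, 18.9 and 39.3 CPM in conventional pregnant mice and ran from 21.5 to 50.8 CPM, median 40.4 CPM, in conventional non-pregnant mice. It was at 111, 57.5, 42.6, 26.9, 24.2 and 37.2 CPM in germ-free non-pregnant mice and at 51.8, 18.3, 19.9, 36.5 and 21.8 CPM in germ-free pregnant mice. H2-Eb1, whose promoter is printed above, was at 16.8, 272, 17.8, 13.7 and 20.8 CPM in conventional pregnant mice and at 106 CPM in germ-free non-pregnant mouse 1, where the other 5 mice ran from 16.0 to 33.8 CPM. H2-Aa was at 223 CPM and 87.4 CPM in these 2 libraries, against 12.7 to 22.6 CPM in the other 4 conventional pregnant mice. The coactivator gene Ciita was high in the same libraries, with 12.7 CPM in conventional pregnant mouse 2, 3.76 CPM in germ-free non-pregnant mouse 1 and 0.671 to 2.25 CPM in the other 20 libraries. B cells also express class II genes, and 4 of 12 B cell and plasma cell genes were highest of 22 libraries in conventional pregnant mouse 2.

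Relative to the rest of their groups, conventional pregnant mouse 2 was 8.61 times (Ciita) to 16.0 times (H2-Ab1) higher in the 6 class II genes, and germ-free non-pregnant mouse 1 was 2.86 to 4.31 times higher. Most ratios between class II genes stayed inside the range of the other libraries. The ratio of Cd74 to H2-Ab1 was 1.96 in conventional pregnant mouse 2 and 2.50 in germ-free non-pregnant mouse 1, inside the range of 1.83 to 2.63 of the other 20 libraries. The ratio of H2-Aa to H2-Ab1 was 0.557 and 0.790, inside 0.444 to 0.894. That of H2-Eb1 to H2-Ab1 was 0.679 in conventional pregnant mouse 2, inside the range of 0.528 to 0.803, but 0.956 in germ-free non-pregnant mouse 1, above it. The ratio of H2-Ab1 to the Kupffer gene Clec4f was 2.00 and 0.939 in these 2 libraries and 0.166 to 0.509 in the other 20, so that both lay above the range. The ratio of C1qb to C1qa, 2 subunit genes of the same complement protein, was 0.804 and 0.677 against 0.549 to 0.856 in the other 20, inside that range in both.

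**Figure D2:**
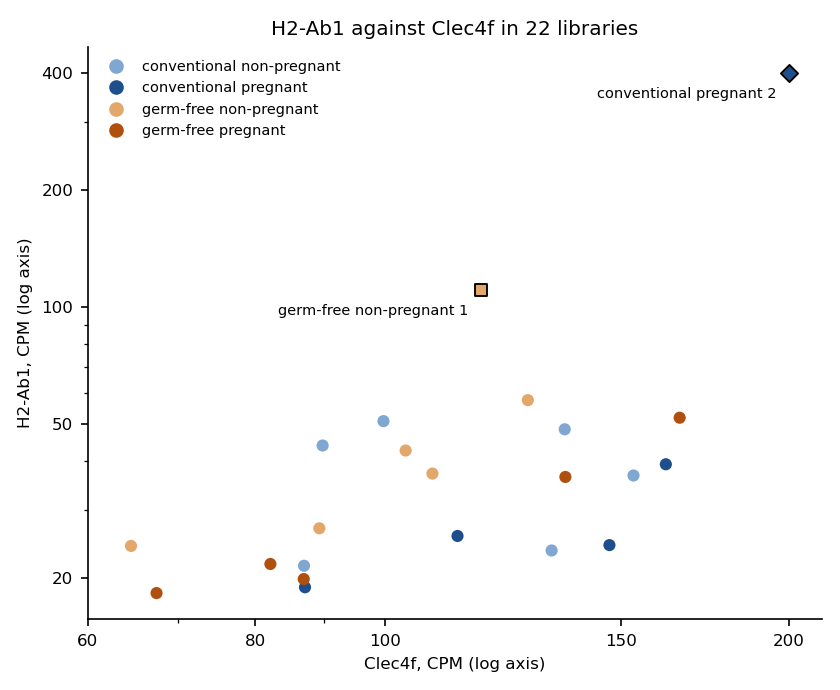
H2-Ab1 against Clec4f in the 22 libraries, both in CPM on log axes, 1 point per library coloured by group. Conventional pregnant mouse 2 (400 CPM of H2-Ab1) and germ-free non-pregnant mouse 1 (111 CPM) lie above the other libraries; Clec4f was within the range of the others in germ-free non-pregnant mouse 1 and highest, at 200 CPM, in conventional pregnant mouse 2.

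Over the 22 libraries, 6 relations between members were computed on log2 CPM. Clec4f followed Adgre1 with a Pearson r of 0.84 (permutation p = 1e-05, the smallest that the permutations can give, Benjamini-Hochberg adjusted over the 6 relations 4e-05) and a Spearman rho of 0.81 (permutation p = 1e-05, adjusted 3e-05); r was 0.76 without the 2 libraries farthest from the median of Clec4f. H2-Ab1 followed Clec4f less closely, with r of 0.62 (permutation p = 0.00118, adjusted 0.00118), rho of 0.63 (permutation p = 0.00229, adjusted 0.00458) and r of 0.48 without the 2 farthest libraries. Ciita and H2-Ab1 had r of 0.87 (permutation p = 2e-05, adjusted 4e-05) and rho of 0.59 (permutation p = 0.00482, adjusted 0.00578), and r dropped to 0.51 without conventional pregnant mouse 2 and germ-free non-pregnant mouse 1, so that much of this relation rested on those 2 libraries. These values share library scaling and mix the 4 groups.

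Genes of T and natural killer cells were low in all but 1 library. Gzma (ENSMUSG00000023132.8, chr13:113093825-113100981, minus strand), the granule protease granzyme A, ran from 0.591 to 2.03 CPM in conventional non-pregnant mice with a median of 1.22 CPM. It was at 0.580, 13.3, 1.17, 0.906 and 0.941 CPM in conventional pregnant mice. In germ-free mice it ran from 0.284 to 1.68 CPM, median 0.867 CPM, without pregnancy and was at 0.979, 0.436, 0.604, 0.233 and 0.383 CPM with pregnancy. Conventional pregnant mouse 2 had 14.4 times the median of the rest of its group, while the other 21 libraries overlapped between groups.

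The protease gene Gzmb (15.7 times) and Nkg7, a granule membrane gene (8.44 times) exceeded the rest of the group by more than the T cell receptor components Cd3e (4.65 times) and Cd3d (3.71 times). Cd4 and Cd8a, the coreceptors of helper and cytotoxic T cells, had 61 and 39 counts in it, against 3 to 10 and 0 to 8 counts in the other 4 conventional pregnant mice. Their folds, 12.8 times for Cd4 and 10.7 times for Cd8a, lay above that of Nkg7 and rested on these few counts. Klrb1c, which encodes the natural killer receptor NK1.1, was the 1 member in which conventional pregnant mouse 2 was not highest, with 1.36 CPM against 1.49 CPM in germ-free non-pregnant mouse 2.

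The 4 genes listed for neutrophils were all highest in conventional pregnant mouse 2. Il1b (ENSMUSG00000027398.13, chr2:129364570-129371139, minus strand) ran from 0.400 to 1.14 CPM, median 0.530 CPM, in conventional non-pregnant mice. It was at 1.45, 32.7, 2.34, 0.418 and 0.679 CPM in conventional pregnant mice. In germ-free mice it ran from 0.122 to 3.09 CPM, median 0.778 CPM, without pregnancy and was at 1.41, 0.685, 4.14, 5.83 and 3.83 CPM with pregnancy. Conventional pregnant mouse 2 was 30.7 times the median of the rest of its group. Apart from it, the 3 highest values of the gene all came from germ-free pregnant mice, whose group overlapped the others through its 2 lowest mice.

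S100a8 was at 0.332, 8.05, 0.167, 1.25 and 0.418 CPM in conventional pregnant mice and ran from 0.341 to 1.14 CPM, median 0.444 CPM, in conventional non-pregnant mice. Germ-free non-pregnant mice ran from 0.107 to 0.805 CPM, median 0.367 CPM, and germ-free pregnant mice were at 0.306, 0.125, 0, 0.373 and 0.0958 CPM, which was 0 to 8 counts a library. Its partner S100a9 reached 11.5 CPM in conventional pregnant mouse 2 and 0.0623 to 2.16 CPM elsewhere. S100a8 was low in germ-free pregnant mice, whereas S100a9 ran from 0.0623 to 0.654 CPM there. S100a9 ran from 0.246 to 2.16 CPM in conventional non-pregnant mice and from 0.205 to 1.44 CPM in germ-free non-pregnant mice. For both genes the range in germ-free pregnant mice overlapped those of the other groups. These 2 genes were described in full after their values were seen.

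Prtn3 (ENSMUSG00000057729.12, chr10:79874476-79883174, plus strand) had 599 counts, or 26.2 CPM, in conventional pregnant mouse 2 and 1, 4, 3 and 0 counts in the other 4 mice of the group. In the other groups it ran from 0.0398 to 0.800 CPM in conventional non-pregnant mice, from 0.210 to 0.547 CPM in germ-free non-pregnant mice and from 0.0467 to 1.53 CPM in germ-free pregnant mice. The label of the gene as a neutrophil marker was checked against other neutrophil genes of the same library. Elane, Mpo and Ctsg, which encode proteins of the same granule, had 6, 39 and 11 counts there, and the neutrophil surface gene Ly6g had 8 counts. Prtn3 was thus high without a comparable count of the other granule genes, which are given without scaling for length.

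Ccr2 (chr9:124101950-124113557, plus strand), a chemokine receptor of monocytes, ran from 0.934 to 1.63 CPM, median 1.27 CPM, in conventional non-pregnant mice. It was at 1.20, 8.54, 1.06, 1.43 and 0.836 CPM in conventional pregnant mice. It ran from 0.744 to 2.36 CPM, median 1.20 CPM, in germ-free non-pregnant mice and was at 0.734, 0.810, 0.418, 1.31 and 1.01 CPM in germ-free pregnant mice. Itgam (ENSMUSG00000030786.18, chr7:128062640-128118491, plus strand), the CD11b integrin of myeloid cells, ran from 0.492 to 1.24 CPM, median 0.722 CPM, in conventional non-pregnant mice and was at 1.24, 4.99, 0.945, 0.940 and 2.04 CPM in conventional pregnant mice. It ran from 0.586 to 1.67 CPM, median 1.02 CPM, in germ-free non-pregnant mice and was at 0.917, 0.810, 1.16, 1.96 and 1.73 CPM in germ-free pregnant mice. Itgam was above the conventional non-pregnant median in all 5 conventional pregnant mice, although the groups overlapped.

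Itgax and Xcr1, markers of dendritic cells, were at 4.99 and 2.28 CPM in conventional pregnant mouse 2 and at 1.92 and 1.27 CPM in germ-free non-pregnant mouse 1, where each was over 3 times the median of the rest of the group (3.27 and 3.39). Ptprc, the CD45 antigen of all leukocytes, was at 9.99, 35.8, 7.67, 7.52 and 7.42 CPM in conventional pregnant mice. It ran from 5.01 to 11.9 CPM, median 6.48 CPM, in conventional non-pregnant mice and from 5.32 to 11.7 CPM, median 8.59 CPM, in germ-free non-pregnant mice, and was at 9.73, 4.05, 4.51, 9.38 and 5.80 CPM in germ-free pregnant mice. Conventional pregnant mouse 2 was 4.71 times the median of the rest of its group in this gene, and germ-free non-pregnant mouse 1 was 1.37 times.

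**Figure D3:**
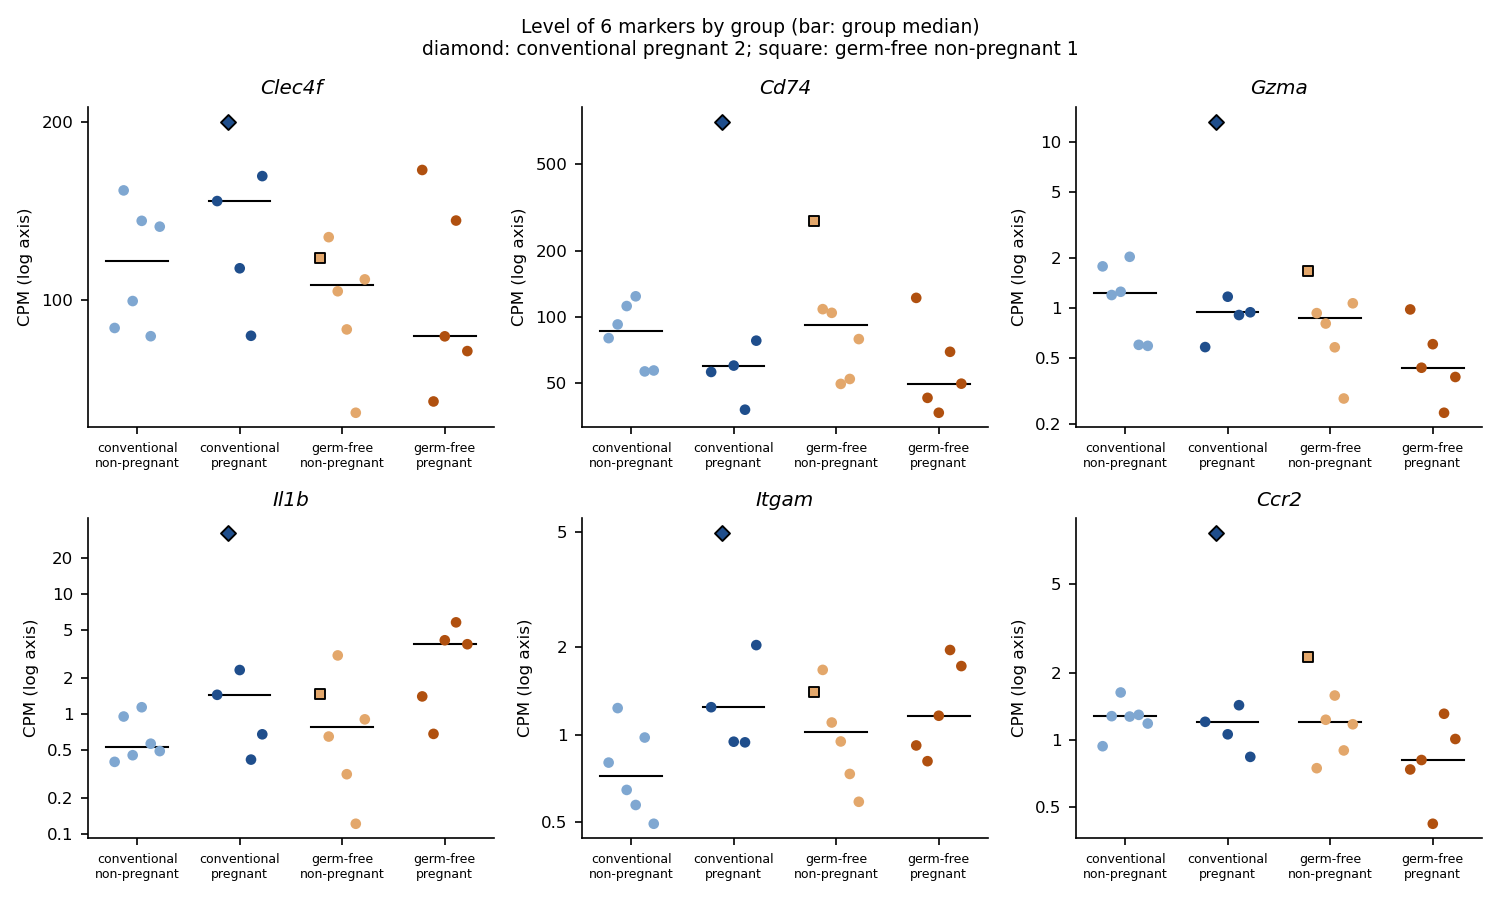
CPM of Clec4f, Cd74, Gzma, Il1b, Itgam and Ccr2 in each library by group, on log axes that differ between panels, with a bar at the group median; the diamond is conventional pregnant mouse 2 and the square germ-free non-pregnant mouse 1. The diamond is the highest point of each panel, by a small margin for Clec4f (200 CPM) and a wide one for Cd74 (784 CPM).

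Germ-free non-pregnant mouse 1 resembled conventional pregnant mouse 2 in part of the members. It was first or second highest of 22 libraries in all 6 class II genes and in 10 of the 34 tested members, compared with 5.6% of the genes tested. The genes listed for neutrophils were mixed: S100a9 and S100a8 were 0.390 and 0.929 times the median of the other germ-free non-pregnant mice, and Prtn3 and Il1b were 1.47 and 2.26 times. Over the members, its median was 1.94 times the rest of its group, against 1.01 times over all genes. The corresponding medians of conventional pregnant mouse 2 were 6.67 and 0.986 times.

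**Figure D4:**
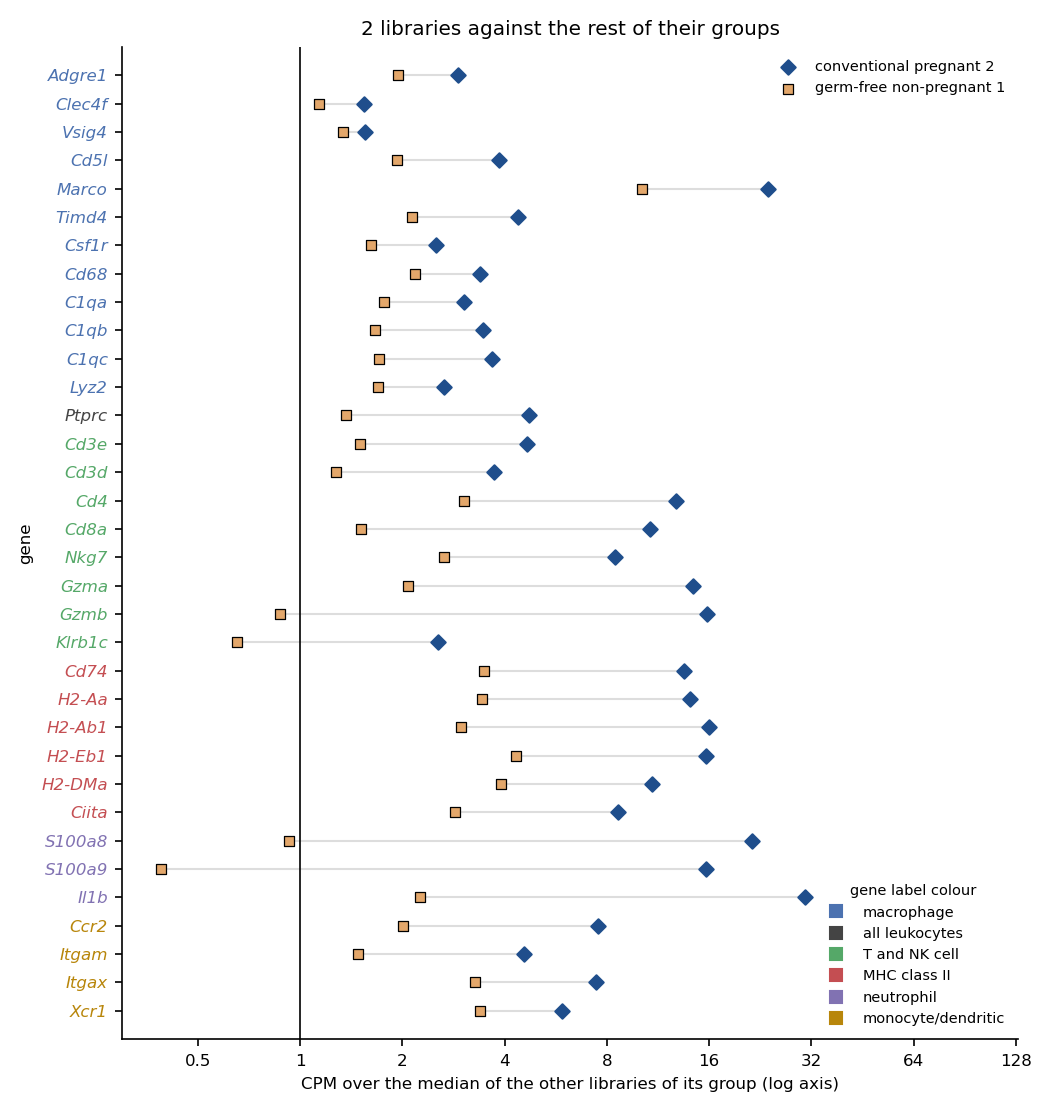
Level in conventional pregnant mouse 2 (diamonds) and germ-free non-pregnant mouse 1 (squares) divided by the median of the other libraries of its group, on a log axis, for 34 members; Prtn3 is left out because the other conventional pregnant mice had 0 to 4 counts. Clec4f and Vsig4 are near 1.5 in conventional pregnant mouse 2 while Il1b is at 30.7, and the 6 class II genes are high in both libraries.

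With all 22 libraries, pregnancy in conventional mice went with higher levels of 3 of the 34 tested members and lower levels of none, where 5.49% of all genes tested were called higher and 3.52% lower. Il1b rose by 3.50 on the log2 scale (SE 0.92, adjusted p = 0.017, edgeR's quasi-likelihood test with Benjamini-Hochberg adjustment over all genes), from 0.669 ± 0.305 (SD, n = 6) to 7.52 ± 14.1 CPM (n = 5). Prtn3 rose by 4.21 (SE 1.24, edgeR adjusted p = 0.0336) and Itgam by 1.35 (SE 0.41, edgeR adjusted p = 0.0415). Leaving out each library in turn ended the call of Il1b only without conventional pregnant mouse 2. Prtn3 lost its call also without conventional non-pregnant mouse 2, 3, 4 or 5, and Itgam without any of 9 libraries, among them conventional pregnant mouse 5 and 5 conventional non-pregnant mice. An unadjusted p under 0.05 was found for 15 members, 33 of the 34 changes were above 0, and their median was 0.99 against 0.04 over all genes.

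When conventional pregnant mouse 2 was left out, none of the 3 calls remained. edgeR called 0 members in either direction, 0 had an unadjusted p under 0.05, and 4.14% and 2.33% of all genes were called higher and lower. With all 22 libraries, DESeq2 had called 2 members higher, Il1b and Itgam, where it called 6.23% of genes higher and 5.61% lower. In every comparison, DESeq2 gave no adjusted p for Prtn3, Marco, Gzmb, Cd74, H2-Ab1, H2-Eb1 and Ccr2, so it could not call these members. Without germ-free non-pregnant mouse 1 as well, edgeR called 0 members, with 1 at an unadjusted p under 0.05, and 3.74% and 2.67% of genes. In the fit without conventional pregnant mouse 2 alone, the change of Il1b was 0.86 (edgeR adjusted p = 0.561) and that of Itgam 0.69 (edgeR adjusted p = 0.317), and Prtn3 turned to the other side of 0, at -1.60 (edgeR adjusted p = 0.389). The median change of the members went from 0.99 to -0.12, while that over all genes went from 0.04 to 0.01.

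The classes shifted by different amounts when this mouse was left out. The median change of the 12 macrophage genes went from 0.51 to -0.04. For the 7 tested T and natural killer cell genes it went from 0.63 to -0.41. Over the genes listed for neutrophils it went from 2.77 to 0.14. For the 6 class II genes it went from 1.26 to -0.60, with 5 of the 6 then below 0, between -0.47 (H2-Ab1) and -0.68 (H2-Aa), and Ciita at 0.05. Among macrophage genes, Adgre1 had the highest change without the mouse, at 0.46 (edgeR adjusted p = 0.578) against 0.98 (edgeR adjusted p = 0.134) with it, and it did not pass in either case.

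**Figure D5:**
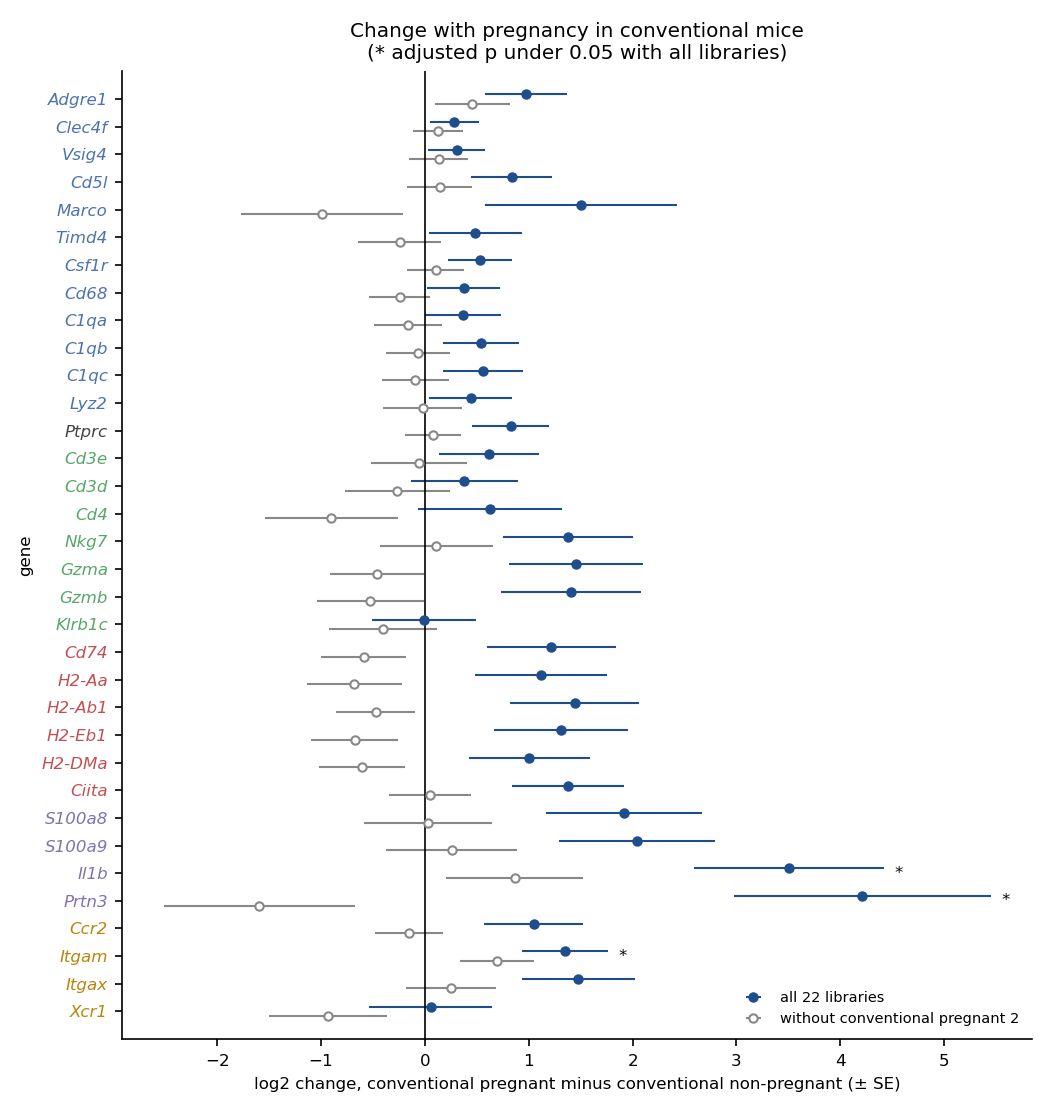
Log2 change with pregnancy in conventional mice (bars are ± SE of the edgeR fit) for the 34 tested members, with all 22 libraries (filled) and without conventional pregnant mouse 2 (open); asterisks mark adjusted p under 0.05. Filled points lie above 0 for 33 members, and open points spread around 0, with 5 of 6 class II genes below it.

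In germ-free mice, edgeR called 0 of the 34 members changed with pregnancy, where 7.15% of genes tested were called higher and 3.6% lower. No member had an unadjusted p under 0.05, DESeq2 also called 0 (7.87% of genes higher and 5.49% lower), and the lowest adjusted p was 0.295 (edgeR). The median change was -0.41, with 23 of 34 below 0. All 6 class II genes were below 0, from -0.67 (Ciita) to -0.94 (H2-Aa and H2-Eb1), 7 of 12 macrophage genes were above 0 with a class median of 0.05, and Il1b had the highest change at 1.53 (SE 0.87). In a fit with only library totals as scaling, which moved the median of all genes by -0.33, the class II genes were likewise below 0, but all 12 macrophage genes were too.

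Dropping conventional pregnant mouse 2 from the shared fit, which leaves the germ-free libraries in place, gave 5 members with an unadjusted p under 0.05 and 0 calls by edgeR, against 7.94% of genes called higher and 4.43% lower. Of the 5, 4 were class II genes, all below 0, and H2-Eb1 had an adjusted p of 0.125 (edgeR). The other was Il1b, which went the other way at 1.53 and had the smallest adjusted p of the 5 (edgeR adjusted p = 0.0989). Germ-free non-pregnant mouse 1 was in this comparison, and without both libraries the median class II change went from -0.78 to -0.32. Il1b was at 1.60 without both libraries (edgeR adjusted p = 0.129).

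Pregnancy averaged over conventional and germ-free mice, a comparison added after the data were seen, called 2 members higher with all 22 libraries and none lower, where 11.8% of genes were called higher and 8.39% lower. Il1b rose by 2.52 (SE 0.63, edgeR adjusted p = 0.0055) and Itgam by 0.82 (SE 0.29, edgeR adjusted p = 0.0492); the call of Itgam held in 7 of the 22 fits that left out 1 library, and that of Il1b in 21, the exception being the fit without conventional pregnant mouse 2. DESeq2 also called 2, where it called 11.9% of genes higher and 10.7% lower. Without conventional pregnant mouse 2, edgeR called 0 members, with 7 at an unadjusted p under 0.05, and 11.2% and 7.97% of genes were called. The direction of the class II genes then went from above 0 to below it: H2-Eb1 was at -0.81 (edgeR adjusted p = 0.0509), H2-Aa at -0.81 (edgeR adjusted p = 0.0749), Cd74 at -0.69 (edgeR adjusted p = 0.0896), H2-DMa at -0.68 (edgeR adjusted p = 0.0997), H2-Ab1 at -0.61 (edgeR adjusted p = 0.11) and Ciita at -0.31 (edgeR adjusted p = 0.483). None of these passed the threshold, and Il1b was at 1.20 (edgeR adjusted p = 0.0626). Without germ-free non-pregnant mouse 1 as well, the 6 changes ran from -0.13 to -0.57, and edgeR called 0 members, with 4 at an unadjusted p under 0.05, and 9.2% and 8.38% of genes.

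Germ-free and conventional non-pregnant mice did not differ in any member by edgeR or DESeq2, with 0 members at an unadjusted p under 0.05 and 0.0879% and 0.0691% of genes called higher and lower by edgeR, and 0.345% and 0.389% by DESeq2. With conventional pregnant mouse 2 left out of the fit, edgeR again called 0 members, with 0 at an unadjusted p under 0.05, and 0.13% and 0.142% of genes. The median change was -0.02. The 12 macrophage genes were all below 0 in germ-free mice, from -0.05 (C1qb) to -0.75 (Marco), and the 6 class II genes all above 0, from 0.23 (Ciita) to 0.46 (H2-Eb1). Without conventional pregnant mouse 2 and germ-free non-pregnant mouse 1, the macrophage genes were again all below 0, while 5 of the 6 class II genes were below 0 too. The class II direction thus rested on germ-free non-pregnant mouse 1. The macrophage direction also depended on single libraries. With 1 library left out in turn, Marco reached 0.54, Lyz2 0.26, C1qb 0.12, Adgre1 0.11, C1qa and Timd4 0.08 and C1qc 0.02. Clec4f, Vsig4, Cd5l, Csf1r and Cd68 stayed below 0 in each of these fits.

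In pregnant mice, all 34 changes were below 0 in germ-free relative to conventional mice, with a median of -1.02 and 17 members at an unadjusted p under 0.05. edgeR called none of them, where 0.0816% and 0.0502% of genes were called higher and lower; the lowest adjusted p was 0.157, for S100a8 at -3.48 (SE 0.90, edgeR). DESeq2 called 3 members lower, where it called 0.402% of genes higher and 0.276% lower: Gzma at -2.68 (DESeq2 adjusted p = 0.0200), S100a8 at -3.52 (DESeq2 adjusted p = 0.0102) and S100a9 at -2.92 (DESeq2 adjusted p = 0.0386). Leaving out conventional pregnant mouse 2, edgeR again called 0 members (0.0495% and 0.0681% of genes), 2 had an unadjusted p under 0.05, and the median was -0.15 with 12 changes above 0 and 22 below. The 2 were Prtn3, higher in germ-free mice at 2.36 (edgeR adjusted p = 0.556), and S100a8 at -1.61 (edgeR adjusted p = 0.59). Gzma was then at -0.77 (edgeR adjusted p = 0.765) and Il1b at 1.40 (edgeR adjusted p = 0.64). Of the class II genes, 5 of 6 were above 0, between 0.11 and 0.20.

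The interaction, which tests whether the change with pregnancy depended on microbiota status, was called for 0 members and 0% of all genes by edgeR, and for 0 members and 0.0126% and 0.0314% of genes by DESeq2. Its 34 values were all below 0 with 14 at an unadjusted p under 0.05, and the lowest adjusted p was 0.863 (edgeR). Without conventional pregnant mouse 2, 0 had an unadjusted p under 0.05, 0.00619% of genes were called higher by edgeR and the median went from -1.11 to -0.17. Germ-free status averaged over pregnancy was called for 0 members by edgeR, with 6 at an unadjusted p under 0.05, where 0.389% and 0.364% of genes were called higher and lower. DESeq2 called Gzma at -1.58 (DESeq2 adjusted p = 0.0402) and S100a8 at -1.90 (DESeq2 adjusted p = 0.0411), and 1.02% of genes higher and 0.879% lower. edgeR called 0 members without conventional pregnant mouse 2, with 3 at an unadjusted p under 0.05, and 0.421% and 0.464% of genes. These 3 were Prtn3 at 1.40, Il1b at 1.07 and S100a8 at -0.94. In none of the 4 comparisons between groups of mice were the values of any member separated, with or without conventional pregnant mouse 2; with all libraries, 2.57% of genes were separated with higher values and 2.39% with lower values in conventional pregnancy (3.49% and 2.88% without the mouse), and 5.66% and 2.81% in germ-free pregnancy. For germ-free status the shares were 0.364% and 0.433% in non-pregnant mice, and 0.496% and 0.603% in pregnant mice (0.929% and 1.12% without the mouse). The comparisons share control groups, and their values stand side by side without a test between them.

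Further genes of the same cell types were taken from lists that hold none of the 35 members. In conventional pregnancy, 3 of 29 other Kupffer cell genes were called higher and 1 lower, and 1 higher and 1 lower without conventional pregnant mouse 2. Slc40a1, the iron exporter ferroportin, rose by 0.53 with that mouse (SE 0.12, edgeR adjusted p = 0.00747) and by 0.49 without it (edgeR adjusted p = 0.0215), and in germ-free pregnancy by 0.54 (edgeR adjusted p = 0.00535). Hmox1, the haem-degrading oxygenase, rose by 1.66 (edgeR adjusted p = 0.00748) with the mouse and was not called without it. Hpgd was the gene called lower without the mouse, at -0.70 (edgeR adjusted p = 0.0433). For pregnancy averaged over microbiota status with all 22 libraries, Hpgd was at -0.76 (edgeR adjusted p = 0.000366). For germ-free status averaged over pregnancy, the called Kupffer cell genes with the smallest adjusted p were both lower in germ-free mice. They were Id3 at -1.13 (edgeR adjusted p = 0.0110) and Ctsc at -0.79 (edgeR adjusted p = 0.0163). Both were also called without conventional pregnant mouse 2 (edgeR adjusted p = 0.0187 and 0.0192). Of 19 other T and natural killer cell genes, 0 were called by edgeR in conventional pregnancy with the mouse, when 1 had an unadjusted p under 0.05. Without it 1 was called higher, the kinase gene Zap70 at 1.03 (edgeR adjusted p = 0.0232). Zap70 was also called in germ-free pregnancy with all libraries, at 0.92 (edgeR adjusted p = 0.0496). For pregnancy averaged over microbiota status without the mouse, Zap70 was at 0.98 (edgeR adjusted p = 0.000634). Cd3g was called lower there, at -0.96 (edgeR adjusted p = 0.0122).

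Of 16 other class II pathway genes, the NF-Y subunit gene Nfyb was lower in conventional pregnancy by -0.56 with the mouse (edgeR adjusted p = 0.00404) and by -0.50 without it (edgeR adjusted p = 0.0153), and in germ-free pregnancy by -0.64 (edgeR adjusted p = 0.000901). Its protein is part of the complex that binds the Y box shown above, and whether its level bears on the class II members was not tested. The median change of the 16 genes was 0.51 with the mouse and 0.03 without it. For pregnancy averaged over microbiota status with all 22 libraries, Nfyb was at -0.60 (edgeR adjusted p = 1.57e-05). Rfx5, of the RFX complex, went the other way there, at 0.50 (edgeR adjusted p = 0.0449). Of 8 tested other neutrophil genes, Lcn2, which encodes an iron-scavenging acute-phase protein, rose in conventional pregnancy by 4.35 (edgeR adjusted p = 0.00982) and was not called without the mouse, and the defining genes Ly6g, Elane, Mpo and Ctsg did not pass the filter. Of 19 other monocyte and dendritic cell genes, Irf8, a transcription factor of both lineages, rose by 1.68 (edgeR adjusted p = 0.0280) with the mouse, and 0 were called by edgeR without it, when 1 had an unadjusted p under 0.05. The summed level of these lists in conventional pregnant mouse 2 was the highest of its group for each: for the 24 other neutrophil genes it was 971 CPM, of which Lcn2 gave 885 CPM, against 22.5 to 33.4 CPM in the other 4 mice. Whether the genes of inflammation in this library bear on the members was not tested.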

How the data were processed

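RNA of 22 mouse livers was measured by sequencing. The authors deposited estimated counts per gene, 1 column per library and not scaled between libraries; Salmon 0.11.3, edgeR 3.24.3 and GRCm38.p6 are named in the submitters' processing notes without a role, and the annotation release and read layout are not given in the sources used here. Identifiers were matched to GENCODE names, 97.72% including the version number and 99.93% when it was ignored, and coordinates are those of these gene models on GRCm38. The library kit did not keep strand, so overlapping and antisense genes cannot be separated, and reads shared by similar class II genes were divided by estimation.

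Estimated counts were rounded, which changed 0.00829% of the counts. edgeR 4.0.16 (R 4.3.3, limma 3.58.1) was used with the default filter on low counts (minimum 10, total 15; 15928 genes kept), TMM scaling and 1 quasi-likelihood fit of the 4 groups over all 22 libraries; the procedure was tested on simulated data. Benjamini-Hochberg adjustment ran over all genes tested, calls were made at an adjusted p under 0.05, and a standard error is the fitted change divided by the root of its F statistic. Log2 changes are fitted values, and CPM are counts scaled by the TMM-adjusted library size. Correlations used log2 CPM with a prior count of 2. P-values measure the spread between mice.

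The comparisons were pregnancy in each microbiota status, germ-free status in each pregnancy status, their interaction and the averages over the other factor. The alternatives were DESeq2 1.42.0, other scaling, no filter, only the groups compared, the replicate number as a block and each library left out in turn. Members were described in every library where called in any comparison or where highest in mean CPM within their class. Of each other list, up to 2 called genes with the smallest adjusted p were picked per comparison, and only some of these are given. The members and lists were chosen with earlier results of these data known. No library repeated another: among 50 pairs of the same group, the lowest mean chi-square per gene was 31.9. Replicate numbers did not pair the libraries: 6 of 31 same-number pairs across groups had a correlation of deviations over 0.1.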

Additional observations from a re-analysis of the deposited data

Results flagged for a closer look

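Of 140 sets of values (35 members in 4 groups), 44 had a highest or lowest library whose gap to its nearest neighbour was a large part of the group's range by Dixon's 95% critical value, which chance exceeds in about 1 in 20 groups. The values below are CPM. Members share libraries, so these are not separate events.

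In conventional pregnant mouse 2, 30 members stood apart. Among macrophage genes they were Adgre1 at 42.2, Cd5l at 404, Marco at 290, Timd4 at 25.2, Cd68 at 21.0, C1qa at 171, C1qb at 137, C1qc at 163 and Lyz2 at 137 CPM. Ptprc stood apart at 35.8 CPM. Among T and natural killer cell genes they were Cd3d at 3.68, Cd4 at 2.67, Cd8a at 1.71, Nkg7 at 4.42, Gzma at 13.3 and Gzmb at 6.00 CPM. All 6 class II genes did: Cd74 at 784, H2-Aa at 223, H2-Ab1 at 400, H2-Eb1 at 272, H2-DMa at 24.2 and Ciita at 12.7 CPM. The genes listed for neutrophils were S100a8 at 8.05, S100a9 at 11.5, Il1b at 32.7 and Prtn3 at 26.2 CPM. Those for monocytes and dendritic cells were Ccr2 at 8.54, Itgam at 4.99, Itgax at 4.99 and Xcr1 at 2.28 CPM. Clec4f, Vsig4, Csf1r, Cd3e and Klrb1c were the 5 members that did not stand apart in this library.

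In germ-free non-pregnant mouse 1, 8 members stood apart: Marco at 48.8, Cd4 at 1.30, Cd74 at 276, H2-Aa at 87.4, H2-Eb1 at 106, Ciita at 3.76, Itgax at 1.92 and Xcr1 at 1.27 CPM. Other libraries gave 6 values. They were Marco at 93.7 CPM in conventional non-pregnant mouse 2, S100a8 at 1.14 and S100a9 at 2.16 CPM in conventional non-pregnant mouse 4, Klrb1c at 1.49 CPM in germ-free non-pregnant mouse 2, and H2-Aa at 39.5 and Prtn3 at 1.53 CPM in germ-free pregnant mouse 1.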

How the results depend on the processing

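The 3 members called higher in conventional pregnancy became 0 with only the 2 groups in the fit, 0 with the replicate block, 0 without conventional pregnant mouse 2 and germ-free non-pregnant mouse 1 together, and 0 to 5 when 1 library was left out; the cause was not tested beyond the libraries named. The additions were Ciita at 1.64 (edgeR adjusted p = 0.0477) and Itgax at 1.72 (edgeR adjusted p = 0.0470) without conventional pregnant mouse 1, and S100a9 at 2.68 (edgeR adjusted p = 0.0407) without conventional non-pregnant mouse 4. Prtn3 ran from -1.60 to 4.85 when 1 library was left out; it reversed to -1.60 without conventional pregnant mouse 2 and to -1.63 without both libraries. The 2 members called higher in averaged pregnancy became 1 with RLE size factors, 1 with library totals alone, 1 without the filter on low counts, 1 with the replicate block, 0 without both libraries and 0 to 3 when 1 library was left out. DESeq2 called 3 members lower in germ-free pregnant mice and 2 in germ-free mice averaged over pregnancy, where edgeR called 0. The cause was not tested in these cases.

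Same-numbered libraries of different groups share only a number: 4 of 22 libraries correlated best with their own number. With that block, Il1b changed by 2.37 in conventional pregnancy (edgeR adjusted p = 0.200), Prtn3 by 2.21 (edgeR adjusted p = 0.460) and Itgam by 1.08 (edgeR adjusted p = 0.107). Of 6741 recomputed changes of members, 6683 kept their call or lack of one without a called change turning over, 45 lost and 11 gained a call, 2 reversed, and 315 differed in sign but were called in neither fit. DESeq2 gave no adjusted p for 49 values, those of 7 members in each of 7 comparisons. These members were Prtn3, Marco, Gzmb, Cd74, H2-Ab1, H2-Eb1 and Ccr2. Most T cell, neutrophil and dendritic cell genes had few counts outside conventional pregnant mouse 2, which limits the changes that could be detected.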

Other observations

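Genes of red blood cell formation included members that rose in pregnancy both with and without conventional pregnant mouse 2. Of 11 tested erythroid genes, 2 were called higher in conventional pregnancy in both fits and 7 in germ-free pregnancy. Over all genes tested, 5.49% were called higher in conventional pregnancy and 7.15% in germ-free pregnancy. Without conventional pregnant mouse 2 these shares were 4.14% and 7.94%. The haem synthesis gene Alas2 rose by 1.45 in conventional pregnancy (SE 0.28, edgeR adjusted p = 0.00177) and by 1.54 without conventional pregnant mouse 2 (edgeR adjusted p = 0.00155). The anion exchanger gene Slc4a1 rose by 2.74 (edgeR adjusted p = 0.00511) and by 2.13 without that mouse (edgeR adjusted p = 0.0263).

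In conventional pregnancy, fewer genes of the cell cycle and of inflammation were called without that mouse. Of all genes tested, 5.49% were called higher and 3.52% lower with it, and 4.14% and 2.33% without it. Of 13 tested cell cycle genes, 7 were called higher in conventional pregnancy, led by Mki67 at 2.56 (SE 0.56, edgeR adjusted p = 0.00476) and Top2a at 2.26 (edgeR adjusted p = 0.00734). Without conventional pregnant mouse 2, edgeR called 0, with 2 at an unadjusted p under 0.05. In that fit Mki67 rose in germ-free pregnancy by 1.35 (edgeR adjusted p = 0.0299), and with pregnancy averaged over microbiota status Mki67 rose by 1.37 (edgeR adjusted p = 0.00164) and Top2a by 0.79 (edgeR adjusted p = 0.0297). Of 19 tested genes of inflammation, 11 were called higher and 1 lower, and 2 higher and 1 lower without the mouse. The acute-phase genes Lbp and Crp were the 2 called higher without it. Lbp rose by 0.96 (edgeR adjusted p = 0.00753) and Crp by 0.72 (edgeR adjusted p = 0.00270). In germ-free pregnancy with all libraries, they rose by 1.51 (edgeR adjusted p = 3.52e-05) and 0.65 (edgeR adjusted p = 0.00368). Lcn2 was called higher in germ-free pregnancy once conventional pregnant mouse 2 was left out of the shared fit, at 2.33 (SE 0.43, edgeR adjusted p = 0.000693).

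Among 16 MHC class I genes, which present peptides to CD8 T cells, 0 were called by edgeR in conventional pregnancy, where 2 had an unadjusted p under 0.05, and 0 without conventional pregnant mouse 2, where 5 had. With pregnancy averaged over microbiota status and conventional pregnant mouse 2 left out, 4 were called lower and 1 higher, among them H2-Q4 at -0.57 (edgeR adjusted p = 0.00239) and H2-Q6 at -0.75 (edgeR adjusted p = 0.0105). Of all genes tested, 11.2% were called higher and 7.97% lower in that fit. With all 22 libraries, H2-T23 was called higher for pregnancy averaged over microbiota status, at 0.43 (edgeR adjusted p = 0.00833). Class I genes have near-identical copies, so the values of single genes are uncertain.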
